A study of Mus musculus with 6 samples.

Results

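The nuclear-encoded subunits of the mitochondrial respiratory chain and of ATP synthase were followed in Hepa1-6 cells, an established mouse hepatoma line, with and without suppression of midnolin (Midn). Members were chosen by name: rows named Ndufa, Ndufb, Ndufc, Ndufs or Ndufv with a digit, Uqcr, Cox4 to Cox8, Atp5 and Sdha to Sdhd, with names ending in -ps left out. They were 86 of 25078 genes, of which 39 were counted as complex I, 4 as complex II, 8 as complex III, 18 as complex IV and 17 as complex V. Grouping followed the gene name, so Ndufa4, now usually placed in cytochrome c oxidase, stands with complex I. The 6 RNA-seq libraries were 1 of parental cells without treatment (wt), 2 of cells transduced with lentivirus carrying a scramble vector (scr, replicates 25-2 and 50-1) and 3 of cells transduced with lentivirus carrying midnolin shRNA (knockdown, replicates 25-3, 50-2 and 50-5). Transduced cells had been selected with puromycin and colonies grown from single cells after limiting dilution, so a library may represent 1 clone; the labels do not say which clone, and the numbers 25 and 50 are not explained. The paper names knockdown clones sh1 and sh2 for its RNA-seq, and the labels do not link them to libraries. Nothing states that libraries of the same clone or of scr came from separate cultures, so p-values measure the spread between these libraries only. The expression values listed by the study leave out knockdown 50-5, which entered here with the other knockdown libraries because its label puts it in that group.

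The respiratory chain passes electrons from NADH (complex I) and succinate (complex II) through complex III to oxygen at complex IV, and the proton gradient built on the way drives ATP synthase, also called complex V. Complexes I, III, IV and V are mosaics: a few core subunits are encoded by mitochondrial DNA, and the rest, together with all of complex II, are encoded in the nucleus and imported. Liver cells rely on this system for much of their ATP, and several subunits of complex IV have separate forms in muscle, lung or testis. Subunits encoded by mitochondrial DNA were not analysed here.

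Between 25586301 and 33119710 reads were counted on genes per library. With the row Rn45s left out of these totals, the members took 0.907% to 1.16% of the counts. Midn had an RPKM (reads per kilobase of exon, scaled to library size) of 59.6 and 50.8 in the scr libraries, 60.5 in wt and 20.3, 21.8 and 22.1 in the knockdown libraries, which gave a log2 fold change of -1.38 (standard error, SE, 0.133; FDR 0.00777, by edgeR's quasi-likelihood test). Without knockdown 50-2 its FDR was 0.0525. Of 7 tested markers of the hepatocyte lineage, 5 had higher and 2 lower fitted values in knockdown, with none called by edgeR, 4 at an unadjusted p under 0.05 (31.5% of all tested genes) and 3 called by DESeq2 (20.1%). Without knockdown 25-3 edgeR called 2 of these markers, both lower (2.24% of all genes), and without 50-5 it called 1, higher (3.01%). With wt among the controls it called 1 lower, beside 7.1% of all genes called lower. The keratin genes Krt8 and Krt18 had an RPKM of 55.6 or more in every library. Albumin (Alb) stood at 1877 and 2804 in scr and 2424 in wt but at 336, 62.7 and 20.9 in knockdown (log2 fold change -4.08, edgeR FDR 0.0712). Apolipoprotein B (Apob) had 3.00 and 1.07 in scr and 52.2, 37.8 and 4.37 in knockdown (3.93, edgeR FDR 0.0822), and the liver transcription factor gene Hnf4a had 33.9 and 11.04 against 65.5, 65.4 and 29.6 (1.23, edgeR FDR 0.206). Of 11 markers of other liver cell types, 8 stayed at or below the filter in all compared libraries, the endothelial gene Cdh5 reached at most 0.0318 and the leukocyte gene Ptprc at most 0.160, while decorin (Dcn), a fibroblast gene, lay between 409 and 1028. The macrophage gene Cd68 had 3.02 and 4.53 in scr and 6.22, 6.88 and 9.21 in knockdown, above both scr values in each library (log2 fold change 0.97, SE 0.310, edgeR FDR 0.0989), and was the 1 marker of the list called by DESeq2. The part of these markers in the members' values was not tested.

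Most subunit genes were strongly expressed in all 6 libraries. Of the 86 members, 75 had an RPKM over 1 in at least 1 of the 5 compared libraries and were tested, and 11 were not. In scr, the summed RPKM of the members was 8061 and 7697, against 8067, 7915 and 8322 in knockdown and 9972 in wt. The highest mean RPKM over the scr libraries in each complex belonged to Ndufa4 (288 ± 23.7, SD, n = 2) in complex I, Sdhd (80.4 ± 2.59) in complex II, Uqcrh (170 ± 20.6), a hinge protein of complex III, Cox4i1 (547 ± 8.86) in complex IV and Atp5b (834 ± 33.3), the catalytic beta subunit of ATP synthase, in complex V. Within complex II, the flavoprotein Sdha (73.4 ± 15.95), the anchors Sdhc (67.9 ± 1.79) and Sdhd and the iron-sulfur protein Sdhb (51.2 ± 2.48) lay within a narrow range, and the values of Sdha overlapped those of Sdhc and Sdhd. A level of at least 20 RPKM was reached in scr by 32 of 35 tested members of complex I, 4 of 4 of complex II, 8 of 8 of complex III, 10 of 12 of complex IV and 13 of 16 of complex V.

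**Figure D1:**
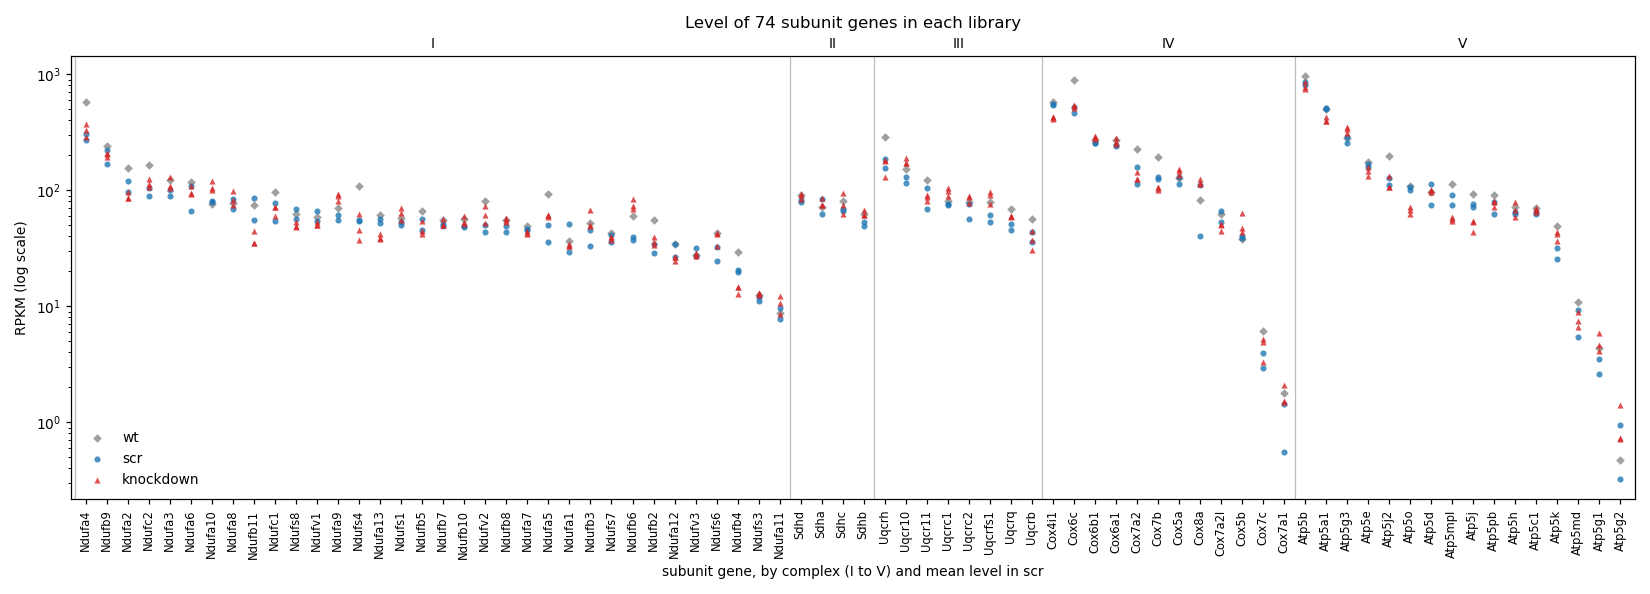
RPKM (log axis) of 74 of the 75 tested subunit genes in each of the 6 libraries, by complex and by mean level in scr; diamonds are wt, circles scr and triangles knockdown. Most genes lay near or above 20 RPKM in every library, and Cox7a1, Atp5g1 and Atp5g2 were among the few far below.

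The untested members were mostly the forms known from other tissues. Cox4i1, the common form of subunit 4, lay between 408 and 580 RPKM, whereas Cox4i2, known from lung, had at most 2 reads in any library. The heart and muscle form Cox6a2 had at most 3 reads beside 239 to 283 RPKM of Cox6a1, and Cox6b2 and Cox8b, forms of testis and muscle, had no reads in any of the 6 libraries beside 253 to 295 RPKM of Cox6b1 and 40.3 to 124 RPKM of Cox8a. Cox7b2 had at most 2 reads beside 100 to 193 RPKM of Cox7b, and Ndufa4l2, a relative of Ndufa4 known from hypoxia, at most 2 reads. Ndufb4c and Cox8c had none, and Ndufa11b had 0.266 to 0.916 RPKM. Cox7a1, the heart and muscle form of subunit 7a, was the exception at 0.557 and 1.44 RPKM in scr, 2.08, 1.52 and 1.49 in knockdown and 1.78 in wt, which was 0.353% to 1.64% of the summed RPKM of Cox7a1 and Cox7a2. Among the 3 genes for the c subunit that forms the rotor ring of ATP synthase, Atp5g3 gave 257 and 286 RPKM in scr, Atp5g1 gave 2.62 and 3.48, and Atp5g2 gave 0.945 and 0.325.

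A few levels carry a counting limit. Ndufs5, a complex I gene that cells generally use, was listed at 0 in all 6 libraries, and Atp5l, which encodes the g subunit of ATP synthase, at 0.483 to 1.12 RPKM. In the GENCODE M21 transcripts, 31.1% of the 50-base words of the Ndufs5 transcript and 68.5% of those of Atp5l also occurred in transcripts of other genes, of which there were 13 for Atp5l, 12 of them annotated as pseudogenes. No other row of the tables overlapped Ndufs5 or Atp5l on either strand. Neither the strand setting of the counting nor the handling of reads with several matches is given in the sources used here. The part of either in these low rows was not tested. Of 82 members matched to a transcript, 36 shared at least 1 such word with another gene and 17 shared at least 10% of them, among them Atp5o (19.1%, 1 pseudogene) and Cox6c (13.9%, 1 pseudogene). Ndufb6, Cox8a and Ndufa4 shared none.

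Knockdown was compared with scr to ask how suppression of midnolin altered gene expression. Among the 75 tested members, 1 rose and 1 fell at an FDR under 0.05 and a fold change of at least 1.5 (edgeR quasi-likelihood test, Benjamini-Hochberg adjustment over 11577 genes, n = 3 and 2 libraries), while this rule called 10.6% of all tested genes, 5.4% higher and 5.23% lower. With no minimum fold, the same 2 genes passed, beside 10.9% of all genes. An unadjusted p under 0.05 was reached by 16 of the 75 and by 31.5% of all tested genes, and DESeq2 called 4 members and 20.1% of all genes. Calls were thus no more frequent among the members than among all genes by any of these rules. Without any 1 of the knockdown libraries edgeR called no member, with 12, 11 and 10 at an unadjusted p under 0.05 without 25-3, 50-2 and 50-5. In those fits 2.24%, 1.14% and 3.01% of all genes were called and 23.3%, 21.5% and 24.8% reached that p, so few or no calls among 75 genes are near the share over all genes. Fitted values were higher in knockdown for 49 members and lower for 26, with a median log2 fold change of 0.12 beside -0.0097 over all tested genes. That median was 0.0622 without knockdown 50-5 and 0.0254 with wt among the controls. All knockdown libraries lay above both scr libraries for 30 of 75 members, as they did for 25.7% of all genes, and below both for 14 of 75, as for 24.5% of all genes. The members also varied less between libraries of a group than all tested genes did. The scr libraries differed by at least 1.5-fold for 9 of 75 members (12%) and for 29.6% of all tested genes. The highest and lowest knockdown library differed by as much for 4 members (5.33%) and for 24.02% of all genes. Genes of like level were not compared, and the part of the members' high levels in this was not tested.

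**Figure D2:**
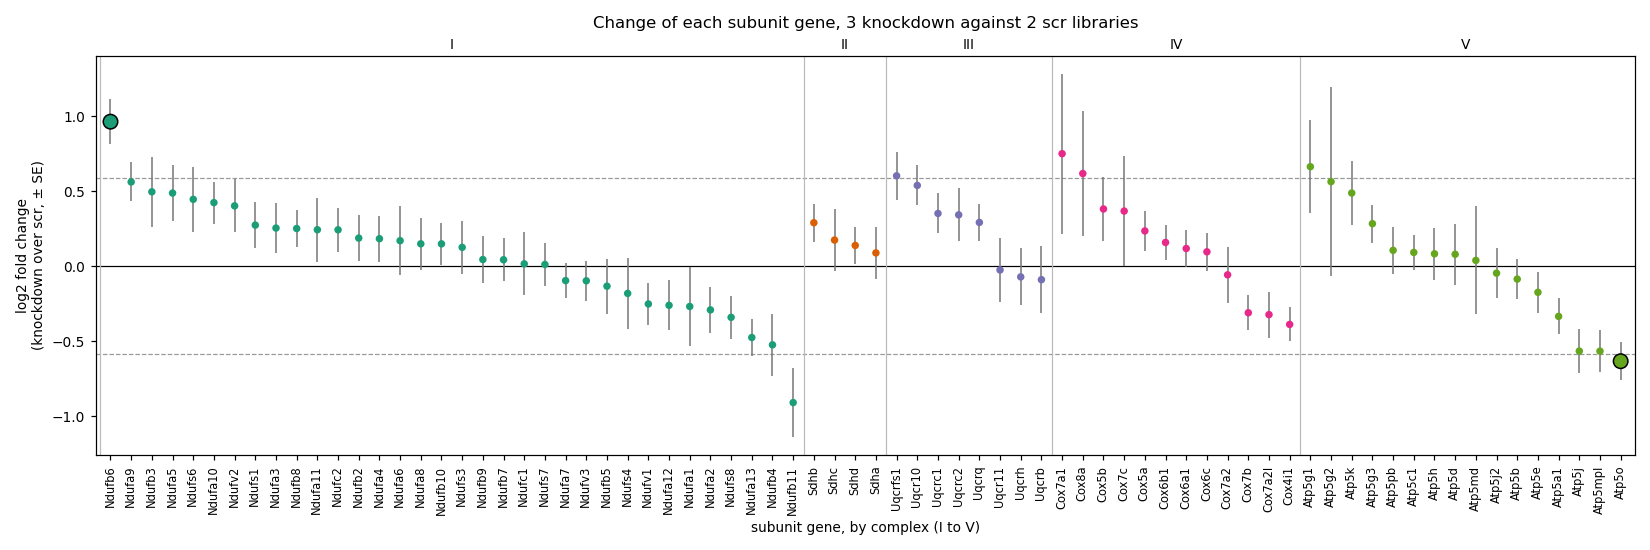
Log2 fold change of knockdown over scr for 74 of the 75 tested subunit genes, with bars of 1 SE, by complex; dashed lines mark 1.5-fold and the large outlined points are the called genes. Ndufb6 (0.96) and Atp5o (-0.63) were called, and most others lay inside the dashed lines.

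The gene that rose was Ndufb6, an accessory subunit in the membrane arm of complex I (chromosome 4 of mm10, 40270591 to 40279421, minus strand). Its RPKM was 39.1 and 37.1 in scr and 68.4, 73.1 and 83.3 in knockdown, with 60.3 in wt. The groups did not overlap, and the wt library lay between them, above both scr values. This was a log2 fold change of 0.96 (SE 0.151, FDR 0.0196, edgeR). The FDR was 0.0674, 0.0870 and 0.0631 without knockdown 25-3, 50-2 and 50-5 in turn, and 0.0591 with wt among the controls.

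Other accessory subunits of complex I spanned a wide range in both directions without passing the test. Ndufa9, an accessory subunit at the junction of the peripheral and membrane arms, stood at 55.2 and 61.7 RPKM in scr and 91.9, 88.8 and 80.4 in knockdown (log2 fold change 0.56, SE 0.130, edgeR FDR 0.0503). Ndufb11, an X-linked subunit of the membrane arm, had the lowest log2 fold change of all members, -0.91 (SE 0.228, edgeR FDR 0.0591), from 55.6 and 86.4 RPKM in scr and 34.97, 35.01 and 44.2 in knockdown. The knockdown values lay below both scr values for Ndufb11 and above both for Ndufa9. Ndufb11 was called without scr 25-2 (FDR 0.0147), with wt among the controls (FDR 0.0239) and by DESeq2 (adjusted p 0.00586), and its row overlaps Rbm10 on the other strand and Btbd35f15 on its own. Ndufa13 (GRIM-19), which is also linked to cell death, had a log2 fold change of -0.48 (SE 0.124, edgeR FDR 0.0643). The median over the 28 tested accessory subunits was 0.15, with 18 higher and 10 lower.

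The 7 nuclear core subunits of complex I, which carry the flavin and the iron-sulfur clusters or line the quinone site, gave no call, and none reached an unadjusted p under 0.05 (edgeR). Their log2 fold changes ran from -0.34 for Ndufs8 to 0.40 for Ndufv2, with 5 higher and 2 lower. Ndufs1, which holds several iron-sulfur clusters, had 53.5 and 49.8 RPKM in scr and 63.1, 55.6 and 70.3 in knockdown (log2 fold change 0.27). Ndufv2 had 43.4 and 49.9 in scr and 52.5, 72.96 and 61.03 in knockdown, and the groups did not overlap for either gene. Over the 35 tested genes of complex I the median log2 fold change was 0.15.

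Complex II gave no call and no unadjusted p under 0.05 (edgeR), and DESeq2 called none. All 4 fitted values were above 0: 0.09 for Sdha, 0.29 for Sdhb, 0.17 for Sdhc and 0.14 for Sdhd. The libraries overlapped for Sdha (62.1 and 84.7 RPKM in scr, 75.1, 74.9 and 85.9 in knockdown) and for Sdhc (66.6 and 69.2 against 61.8, 75.2 and 94.6). They did not overlap for Sdhb (53.0 and 49.5 against 61.1, 61.2 and 67.2) or Sdhd (82.3 and 78.6 against 93.1, 84.0 and 90.8). Without scr 25-2 the value of Sdha was -0.10.

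Complex III had the highest median of the 5 complexes, 0.32, although without scr 50-1 it was 0.18 and that of complex II 0.22. It had 5 of 8 members higher and none called by edgeR, although 3 reached an unadjusted p under 0.05 and DESeq2 called 1, Uqcrfs1. Uqcrfs1, the Rieske iron-sulfur protein, had 53.6 and 61.03 RPKM in scr and 75.9, 90.8 and 96.5 in knockdown (log2 fold change 0.60, SE 0.159, edgeR FDR 0.0663). The small subunit Uqcr10 had 129 and 115 in scr and 173, 173 and 191 in knockdown (0.54, SE 0.134, edgeR FDR 0.0580). Every knockdown library lay above both scr libraries for these genes and for Uqcrq and the large core proteins Uqcrc1 and Uqcrc2, whose log2 fold changes were 0.29, 0.35 and 0.34. The other 3 lay near 0, with -0.07 for Uqcrh, -0.03 for Uqcr11 and -0.09 for Uqcrb, and the sign of each turned with 1 library or another left out. Uqcr11, at 104.9 and 68.7 RPKM in scr, ran from -0.30 without scr 50-1 to 0.33 without scr 25-2. Cyc1, the cytochrome c1 gene that falls outside the naming rule, varied within scr, at 45.8 and 75.7, and had 76.3, 81.7 and 55.6 in knockdown.

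In complex IV none of 12 tested members was called by edgeR or DESeq2, and 2 reached an unadjusted p under 0.05 in edgeR. Those were Cox4i1 and Cox7b. Cox4i1, the largest nuclear subunit and the member of this complex with the highest RPKM in scr (Cox6c was higher in knockdown and in wt), had 553 and 541 RPKM in scr, 431, 426 and 408 in knockdown and 580 in wt (log2 fold change -0.39, SE 0.113, edgeR FDR 0.0799). The knockdown libraries lay below both scr libraries and wt, with little spread inside either group. Cox7b was likewise lower in each knockdown library (124.9 and 130.2 against 103.8, 100.4 and 106.9). Cox6a1 and Cox6b1 lay slightly above, at log2 fold changes of 0.12 and 0.16, and Cox7a2l, which takes part in joining complexes III and IV into supercomplexes, at -0.32. Cox8a differed most within scr, with 111.5 RPKM in 25-2 and 40.3 in 50-1 beside 115, 114 and 124 in knockdown and 82.6 in wt. Its log2 fold change was 0.62 (SE 0.415, edgeR FDR 0.360), and 1.55 (FDR 0.00578) without scr 25-2, so its value rests on which scr library is kept.

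Complex V held the gene that fell, Atp5o (chromosome 16, 91925223 to 91931630, minus strand). It encodes the oligomycin sensitivity-conferring protein, which ties the catalytic head of ATP synthase to the peripheral stalk. Atp5o had 106.8 and 99.5 RPKM in scr, 62.6, 67.6 and 71.0 in knockdown and 109 in wt, so the knockdown libraries lay below all others. Its log2 fold change was -0.63 (SE 0.127, FDR 0.0362, edgeR). The FDR was 0.127, 0.148 and 0.0878 without knockdown 25-3, 50-2 and 50-5 in turn, 0.0511 without scr 25-2 and 0.0638 with a term for the label number, 25 or 50.

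The other members of complex V did not move with Atp5o as 1 block. Of the peripheral stalk, Atp5j had 72.3 and 75.9 RPKM in scr and 43.9, 52.8 and 54.7 in knockdown (log2 fold change -0.57, SE 0.146, edgeR FDR 0.0625), and its row overlaps Gabpa on the other strand. The other stalk genes, Atp5pb and Atp5h, had log2 fold changes of 0.11 and 0.08 with overlapping libraries. Atp5mpl, a small membrane subunit, had 91.0 and 74.7 in scr and 59.1, 56.1 and 54.3 in knockdown (-0.57, SE 0.141, edgeR FDR 0.0582), whereas Atp5k, another of these, had 31.9 and 25.6 against 36.6, 41.7 and 43.5 (0.49). In the catalytic head and central stalk, values ran from -0.33 for Atp5a1 to 0.09 for Atp5c1, and Atp5b was at -0.09. Atp5g1, Atp5g2 and Atp5g3 had log2 fold changes of 0.66, 0.56 and 0.28, Atp5g1 and Atp5g2 at levels under 6 RPKM. Atp5g2 passed the filter only through knockdown 50-5, at 1.40 RPKM beside 0.734 and 0.718 in the other knockdown libraries, and was near 0 (-0.0016) without scr 50-1. The median of the 16 tested members was 0.06, with 9 higher and 7 lower, and its sign turned without scr 50-1 (-0.13), without knockdown 50-5 (-0.0487) and with wt among the controls (-0.15).

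**Figure D3:**
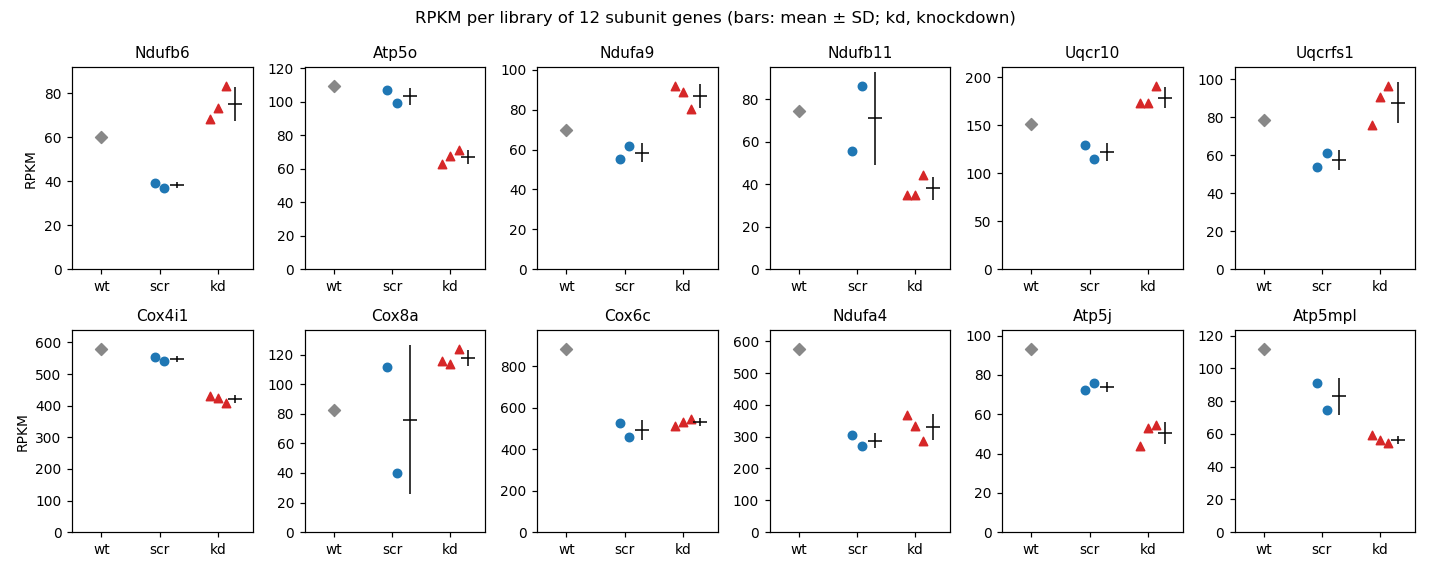
RPKM in each library of 12 subunit genes (diamonds wt, circles scr, triangles knockdown), with bars of mean ± SD beside scr and knockdown. The groups stand apart for, among others, Ndufb6, Atp5o, Ndufa9, Uqcr10, Uqcrfs1 and Cox4i1, and Cox8a is low in 1 scr library only.

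The values of the members moved with their place in the genome. Each member was set beside the other tested genes within 5 Mb on either side, members left out, wherever there were at least 20 of these. Over 68 members, the log2 fold change and the median of the neighbours had Pearson's r = 0.71 and Spearman's rho = 0.64, against 0.19 and 0.35 over 10714 tested genes that are not members. The points come from the same 5 libraries, and members close together share neighbours, so this is a description. The sign was the same for 48 of 68 members (70.6%) and for 63.3% of the other genes. Subtracting the neighbours' median lowered the SD of the members' values from 0.35 to 0.25 and the number past 1.5-fold from 7 to 3 of 68. For the genes that are not members the SD went from 1.248 to 1.225 and the number past 1.5-fold from 3320 (30.99%) to 2856 of 10714, so their values were far more widely spread; the part of this spread in the difference between the correlations was not tested. Pearson's r was between 0.69 and 0.73 with windows of 2 Mb, 10 Mb or the whole chromosome, 0.55 without chromosomes 4, 16 and X, and 0.61 to 0.74 with each library left out, all of these chosen after seeing the data. In wt against scr the same correlation was 0.0052 over members and 0.17 over the genes that are not members.

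Both called genes had neighbours whose median had the same sign. Around Ndufb6 the median of 58 neighbours was 0.50 and 20.7% of them were called, and every 20 Mb stretch of the first 100 Mb of chromosome 4 had a median between 0.45 and 0.69. Further along that chromosome the medians were between -0.15 and -0.04, and of the members there Uqcrh had -0.07 and Sdhb 0.29. Around Atp5o the median of 52 neighbours was -0.89 and 57.7% of them were called. Each 20 Mb stretch of chromosome 16 had a median below 0, from -0.29 to -1.08, and its 3 tested members, Ndufb4, Atp5j and Atp5o, were all lower (-0.52, -0.57 and -0.63). After subtraction Ndufb6 stood at 0.46 and Atp5o at 0.25, on the other side of 0.

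Over whole chromosomes, several held members that lay on the side of the other genes. On chromosome X the other genes had a median of -0.44 and the 3 members Ndufb11, Cox7b and Ndufa1 were lower, Ndufa1 not without scr 50-1 (0.19). On chromosome 12 the other genes had -0.42 and Atp5mpl -0.57, and on chromosome 8 they had -0.30 while Cox4i1 and Ndufa13 were lower and Ndufb7 was at 0.04. On chromosome 6 the other genes had a median of 0.35, and Ndufa4, Ndufa5, Ndufa9 and Ndufb2 were all higher, and on chromosome 1, at 0.20, 6 of 6 members were. Among members with at least 20 neighbours, those more than 1.5-fold from the neighbours' median were Cox7a1, Atp5g1 and Ndufs8. Cox7a1 and Atp5g1 were expressed at low levels, and Ndufs8 was at -0.34 beside a neighbours' median of 0.27. Atp5j, with 13 neighbours, was at -0.57 beside -1.17. What sets these regional values was not tested.

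**Figure D4:**
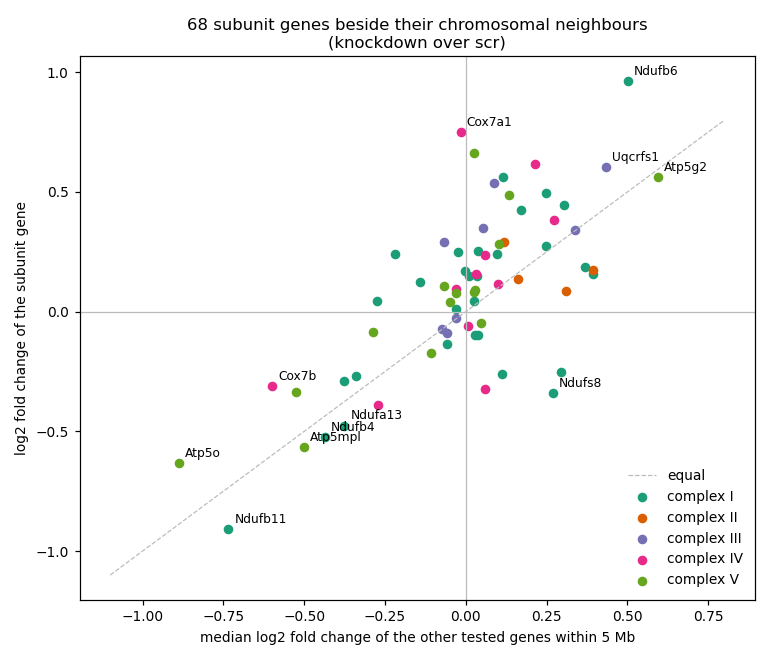
Log2 fold change of 68 subunit genes (y) against the median log2 fold change of the other tested genes within 5 Mb (x), coloured by complex; the dashed line marks equal values. Atp5o and Ndufb11 sit at the lower left and Ndufb6 at the upper right, each on the same side of 0 as its neighbours.

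The promoters of both called genes are printed because these are the members that passed the test, with that of Sdhd, in which 4 of 5 motifs searched were found. Sequences run 5′ to 3′ on the strand of the gene, from 250 bases before to 50 after the RefSeq start site (GRCm38.p6), and capitals mark matches on either strand to the core motifs of NRF1 (GCGCANGCG), ETS factors such as GABP (CCGGAAG), YY1 (AAGATGGC) and ERR (TCAAGGTCA), regulators known from genes of this system.
Ndufb6, chr4:40279372-40279671, minus strand: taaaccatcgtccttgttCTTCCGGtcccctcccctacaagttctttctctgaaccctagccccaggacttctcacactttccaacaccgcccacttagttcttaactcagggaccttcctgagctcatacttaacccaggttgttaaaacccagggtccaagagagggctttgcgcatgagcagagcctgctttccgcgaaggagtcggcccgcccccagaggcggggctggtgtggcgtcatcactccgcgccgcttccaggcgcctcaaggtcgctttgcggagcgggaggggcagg
Atp5o, chr16:91931581-91931880, minus strand: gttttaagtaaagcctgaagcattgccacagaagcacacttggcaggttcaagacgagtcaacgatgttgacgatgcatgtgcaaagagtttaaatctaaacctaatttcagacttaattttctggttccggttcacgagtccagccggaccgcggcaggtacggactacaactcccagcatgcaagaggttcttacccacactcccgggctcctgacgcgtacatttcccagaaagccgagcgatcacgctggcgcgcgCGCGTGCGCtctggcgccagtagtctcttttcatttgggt
Sdhd, chr9:50603800-50604099, minus strand: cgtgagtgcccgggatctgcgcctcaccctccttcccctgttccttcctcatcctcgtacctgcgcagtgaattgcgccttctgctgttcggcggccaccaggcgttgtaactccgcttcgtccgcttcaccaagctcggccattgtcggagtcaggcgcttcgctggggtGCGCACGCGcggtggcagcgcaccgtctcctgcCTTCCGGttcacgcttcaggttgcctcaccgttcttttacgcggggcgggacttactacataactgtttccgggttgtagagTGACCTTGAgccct
With the start site as position 0, Ndufb6 had an ETS match at -232 to -226 and Atp5o an NRF1 match at 10 to 18. Sdhd had an NRF1 match at -79 to -71, an ETS match at -46 to -40 and an ERR match at 36 to 44, and the Sp1 core GGGCGG stood in the promoters of Ndufb6 and Sdhd, where it is not capitalised. No 2 of the capitalised matches overlapped.

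RefSeq gave a promoter for 68 members, 64 of them with a start within 50 bases of the deposited gene start, and 63 were tested members. The NRF1 core stood in 27.0% of these 63 promoters, against 8.75% of all 18502 promoters and 14.8% of those of tested genes. The YY1 core stood in 14.3% against 3.19% and 5.01%, the ETS core in 23.8% against 11.8% and 19.9%, and the ERR core in 2 of 63 against 0.357% and 0.212%. The Sp1 core was less frequent, at 41.3% against 46.1% and 65.8%. Median log2 fold changes of members with and without a match were 0.15 and 0.09 for NRF1, 0.12 and 0.15 for ETS, 0.11 and 0.13 for YY1, 0.12 and 0.15 for Sp1 and 0.21 and 0.12 for ERR, the first of these over 2 members. A match of letters is not a binding site.

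The genes of the named regulators were read from the same fit. Ppargc1a, the coactivator PGC-1alpha, rose from 0.304 and 0.0320 RPKM in scr to 4.14, 4.07 and 5.97 in knockdown, with 0.0698 in wt (log2 fold change 4.79, SE 0.865, FDR 0.0284, edgeR). It passed the filter on RPKM only through the knockdown libraries, where it was high. Yy1 fell from 27.1 and 22.9 to 14.8, 12.4 and 13.6 (log2 fold change -0.89, SE 0.147, FDR 0.0227, edgeR), on chromosome 12, where its neighbours had a median of -0.46. Neither was called without any 1 of the 3 knockdown libraries. Of 16 tested regulators these were the only calls, 2 of 16 beside 10.6% of all tested genes. Nrf1 was at -0.06 (FDR 0.822), Gabpa at -0.46 (FDR 0.0635) and Esrra, which encodes ERR alpha, at 0.97 (SE 0.370, FDR 0.143, edgeR), with 11.5 and 5.10 RPKM in scr. Gabpa lies on chromosome 16, where its 12 neighbours had a median of -1.17.

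Assembly factors, which build the complexes without being part of them, were tested in the same fit, and 1 of 15 tested factors of complex I and 2 of 20 of complex IV rose and none fell, beside the 5.4% of all genes called higher. Ndufaf4, needed for complex I, rose from 7.04 and 7.53 RPKM to 17.4, 17.2 and 17.3 (log2 fold change 1.23, SE 0.121, FDR 0.00777, edgeR). Cox19, a copper-related factor, rose from 22.6 and 24.1 to 39.3, 40.1 and 38.8 (0.74, SE 0.139, FDR 0.0306, edgeR), and Coa5 from 27.5 and 27.9 to 41.4, 45.5 and 48.02 (0.69, SE 0.130, FDR 0.0312, edgeR), both for complex IV. The groups were well apart for all 3 genes, and wt, at 8.71, 23.4 and 29.2, lay close to scr. Dmac1, a factor of the distal membrane arm of complex I that was read with cytochrome c and the subunits outside the naming rule, rose as well (0.72, SE 0.160, FDR 0.0454, edgeR). Ndufaf4 and Dmac1 lie on chromosome 4, as does Ndufb6. By DESeq2, 3 factors of complex I (2 higher and 1 lower) and 4 of complex IV (2 higher and 2 lower) were called, shares close to the 20.1% of all genes. The lower ones were Timmdc1, Cox17 and Pet100, with log2 fold changes of -0.72, -0.66 and -0.73 and an edgeR FDR of 0.0867, 0.0663 and 0.0673, and edgeR called them as well with wt among the controls (FDR 0.0372, 0.0277 and 0.0305). Timmdc1 and Cox17 lie on chromosome 16 and Pet100 on chromosome 8, and their neighbours had medians of -0.55, -0.55 and -0.40. None of 10 factors of complexes II and III or 4 of complex V was called by edgeR or DESeq2, with 0 and 1 at an unadjusted p under 0.05. Without knockdown 50-2 each of the named factors lost its call, and without 25-3 or 50-5 Ndufaf4 alone kept it. With the label number as a term Cox19, Coa5 and Dmac1 also lost their calls (FDR 0.0585, 0.0566 and 0.0746, edgeR) and Ndufaf4 did not. Coa5 and Dmac1 also lost theirs without scr 50-1 (edgeR FDR 0.05003 and 0.0841), and Dmac1 with wt among the controls (0.0736) or with no filter on low values (0.0577).

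The members' summed level was highest in parental cells. There was 1 wt library with no replicate of its own, and its difference from scr is described without a test. The RPKM of wt was above the scr mean for 64 of 75 members, with a median log2 ratio of 0.25, beside -0.0012 over all tested genes. It was at least 1.5-fold away and outside both scr values for 15 of 75 members, all of them higher; 15.4% of all tested genes met this rule in either direction. The largest ratios were those of Ndufa5 (92.0 RPKM in wt against 50.1 and 35.4 in scr), Ndufa4 (576 against 305 and 271) and Ndufs4 (108 against 55.2 and 54.4). Cox6c, one of the most abundant members, had 884 in wt against 525 and 459 in scr and 511, 533 and 547 in knockdown, and Uqcrh had 285 against 184 and 155. In knockdown, Ndufa5 had 59.3, 61.1 and 61.2 RPKM, above both scr values, and Ndufs4 had 37.5, 45.8 and 62.6, on either side of them.

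The difference between wt and scr moved with transcript length. The median summed exon length was 764 bases for the tested members and 2920 for all tested genes. For members under 1000 bases the median log2 ratio of wt to scr was 0.37, with 44 of 47 higher, and for longer members 0.16, with 20 of 28 higher. Tested genes that are not members had 0.21 under 1000 bases and -0.02 above. In knockdown against scr, the short genes that are not members had a median of -0.12 and the short members 0.12. The part of length in the wt ratios was not tested. With the trend with exon length taken out of the knockdown fold changes, the median of the members was 0.15 in place of 0.12. With wt added to the controls, 4 members were called, all lower in knockdown (Atp5o, Ndufb11, Atp5j and Atp5mpl), and Ndufb6 was not. That fit called 7.1% of all genes lower, so 4 of 75 is no more than the share over all genes.

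**Figure D5:**
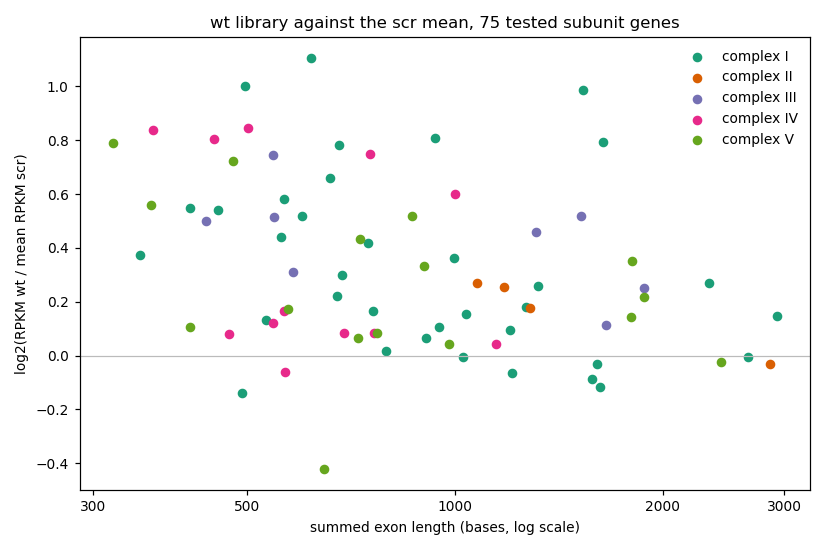
Log2 ratio of the RPKM in wt to the mean RPKM in scr (y) against summed exon length in bases (x, log axis) for 75 tested subunit genes, coloured by complex. Most points lie above 0, with 44 of 47 genes under 1000 bases higher in wt.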

How the data were processed

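RNA of Hepa1-6 cells (1 wt, 2 scr and 3 midnolin knockdown libraries) was sequenced after ribosomal RNA depletion. The authors mapped single reads to mm10 (Tophat2), counted reads per RefSeq gene with HTSeq (version 0.6.1p1 in the submitters' processing notes) and deposited the counts without normalization. RPKM values, for which the authors scaled library sizes by TMM in edgeR, were deposited as well. The strand setting is not given in the sources used here. Every library column was matched to its sample by name.

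Counts were tested with edgeR 4.0.16 (R 4.3.3; quasi-likelihood, TMM, Benjamini-Hochberg adjustment over all 11577 genes with RPKM over 1 in at least 1 compared library), 3 knockdown against 2 scr libraries, and called at FDR under 0.05 and at least 1.5-fold. The common biological coefficient of variation was 0.272, larger than counting error at these totals; Rn45s took 10.1% to 13.1% of counts. Alternatives used DESeq2 1.42.0, limma 3.58.1 on log2(RPKM + 0.1) and log2(RPKM + 1), other size factors, no filter, other sets of libraries, a term for the 25 or 50 of the labels and removal of a trend with exon length. Genes named by rule were those called, the largest change and highest level in each complex, tissue isoform pairs, the Sdh genes and called genes of the related lists; others were named after their values were seen. Members and lists were chosen with earlier results of these data known. Promoters are from RefSeq. Figures were drawn with matplotlib 3.10.9. One member is not reported by name here.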

Additional observations from a re-analysis of the deposited data

How the results depend on the processing

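The number of called members was 2, and 4 with DESeq2, 4 with wt among the controls, 1 with the label number as a term and 0 to 5 with 1 library left out. It was 0 without any 1 of the knockdown libraries (25-3, 50-2 or 50-5; edgeR, with 12, 11 and 10 members at an unadjusted p under 0.05) and 5 without scr 25-2, where the lone scr library is assumed to vary like the knockdown group. The median of all members was 0.0254 with wt among the controls and 0.0622 to 0.16 with 1 library left out. The count over all genes, 1230, was 2322 with DESeq2, 807 with the label number as a term and 131 (without knockdown 50-2) to 2273 (without scr 25-2) with 1 library left out. With wt among the controls the median log2 fold change was -0.0353 for complex I, 0.19 for complex III, 0.0654 for complex IV and -0.15 for complex V. With 1 library left out it was 0.0328 to 0.15 for complex I, 0.0684 (without knockdown 50-5) to 0.22 for complex II, 0.18 to 0.37 for complex III, 0.0830 (without scr 50-1) to 0.17 for complex IV and -0.13 to 0.11 for complex V. Among named genes, none of them called, the sign of Ndufa4 turned with wt among the controls (-0.22). With 1 library left out, Uqcrh ran from -0.19 to 0.0749 (above 0 without knockdown 50-5 or scr 25-2), Cox7a2 from -0.28 to 0.22 and Sdha from -0.10 to 0.33 (both turned without scr 25-2), and Sdhc from -0.0044 (without knockdown 50-5) to 0.31. Of other genes given with a value, the sign also turned for Uqcr11 and Uqcrb (0.33 without scr 25-2 and 0.0544 without scr 50-1), for Ndufb2, Cox6c and Atp5pb with wt among the controls (-0.12, -0.23 and -0.0094), for Ndufa1 without scr 50-1 (0.19) and for Ndufb7 and Atp5h without knockdown 50-5 (-0.02 and -0.04). The causes were not tested. Of the alternative values for these counts and medians, 86 were close to the reported ones and 21 were not. No paired analysis was possible because no full replicate label, such as 25-2, occurs in both groups. The part they share, 25 or 50, was fitted as a term, with the counts given above. With 2 scr libraries, differences of the size of most members' SE could not be told from 0.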

Other observations

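Nuclear genes of other mitochondrial systems were read from the same edgeR fit of knockdown against scr, which called 10.6% of all tested genes and gave 31.5% an unadjusted p under 0.05, beside 20.1% called by DESeq2. Of 76 tested genes of the mitochondrial ribosome, which makes the subunits encoded by mitochondrial DNA, 61 were higher and 15 lower, and the median was 0.26 on the log2 scale. Mrpl50 (0.75, SE 0.122, FDR 0.0217), Mrpl51 (0.79, SE 0.169, FDR 0.0417) and Mrpl19 (0.89, SE 0.196, FDR 0.0459) rose and Mrps6 fell (-2.07, SE 0.177, FDR 0.00610), while 20 reached an unadjusted p under 0.05 and DESeq2 called 9. Mrps6 had 199 and 236 RPKM in scr, 59.5, 54.2 and 43.0 in knockdown and 109 in wt, so wt lay between the groups. It lies on chromosome 16, where 51 neighbours had a median of -0.86. Without each knockdown library in turn, Mrpl19, Mrpl50 and Mrpl51 lost their calls. Mrpl19 and Mrpl51 also lost theirs with wt among the controls (edgeR FDR 0.166 and 0.0852) and without scr 50-1 (0.0874 and 0.0660), Mrpl19 with upper-quartile size factors (0.0513), and Mrpl51 without scr 25-2 (0.0700) and with the label number as a term (0.0732).

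Of 18 tested genes of the TCA cycle and pyruvate dehydrogenase, 12 were higher and none was called by edgeR, with 8 at an unadjusted p under 0.05 and 2 called by DESeq2. Of 20 genes of the mitochondrial membranes and protein import, 12 were higher and none was called by edgeR, with 9 at an unadjusted p under 0.05 and 1 called by DESeq2. Cytochrome c (Cycs), the carrier between complexes III and IV, had 1.98 and 1.22 RPKM in scr and 3.53, 3.29 and 2.597 in knockdown (log2 fold change 0.95, SE 0.305, edgeR FDR 0.0985). Atpif1, the inhibitor of ATP synthase, had 62.4 and 57.7 in scr and 39.2, 44.8 and 46.0 in knockdown (-0.48, SE 0.135, edgeR FDR 0.0739).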
